A study of Homo sapiens with 15 samples.

Results

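The genes described are 8 members of the human cholesterol synthesis pathway and its control: HMGCS1, IDI1, FDFT1, SQLE, LSS, DHCR7, SREBF2 and INSIG1. They were found by matching each symbol to the exon names of the deposited tables, and 1 transcript was used for each, with 93 exons of 279143 in all, of 49948 transcripts and 44786 gene symbols. LSS matched another transcript, of 17 exons on an alternate scaffold, which had 0 counts in every library and was left out. The matching rule uses the gene symbol and no measured value, but the members were chosen with earlier results of these data known. None of them is a receptor for cholesterol uptake, so the values below concern synthesis and its regulation.

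The study mapped footprints of the exon junction complex, the protein complex that splicing leaves on messenger RNA upstream of each exon-exon junction and that translating ribosomes remove. Its core holds EIF4A3 and MAGOH, and CASC3 and RNPS1 are peripheral proteins carried by separate, mutually exclusive forms of the complex. Footprints were isolated by RIPiT-Seq, a purification of a FLAG-tagged protein followed by a second purification with another antibody and sequencing of the RNA fragments left. All cells were HEK293 Flp-In Trex, an embryonic kidney line, and each fusion protein was stably expressed in a line of its own, so that an effect of the protein and of the line cannot be told apart.

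The 15 libraries form 10 groups. FLAG-CASC3 cells treated with the translation inhibitor cycloheximide (100 µg/ml for 3 h), untreated FLAG-CASC3 cells, cycloheximide-treated FLAG-RNPS1 cells and untreated FLAG-RNPS1 cells gave 2 libraries each, all after crosslinking with 0.1% formaldehyde for 10 min, denaturing lysis and a second purification with EIF4A3 antibody. Below, these are called CASC3 and RNPS1 footprints with or without cycloheximide. Native libraries, from uncrosslinked cells in a non-denaturing buffer, were 1 each of FLAG-CASC3 with EIF4A3, FLAG-RNPS1 with EIF4A3, and FLAG-MAGOH with CASC3, RNPS1 or EIF4A3 antibody. RNA-seq, 2 libraries from cells with no fusion protein, neither treated nor crosslinked, used RNA freed of ribosomal RNA and broken by base hydrolysis. No source says that replicates A and B were separate cultures, so p-values measure the spread between libraries, which may be technical.

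Cells make cholesterol from acetyl-CoA through mevalonate, isoprenoid units, squalene and lanosterol. The transcription factor SREBP2, encoded by SREBF2, drives the enzyme genes when sterols are low, and INSIG proteins hold its precursor and the escort protein SCAP in the endoplasmic reticulum when sterols are high. INSIG1 is itself a target of SREBP, and its protein is short-lived. The multi-exon transcripts of these genes receive exon junction complexes in the nucleus and lose them as they are translated.

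Library totals lay between 467741 counts (RNPS1 with cycloheximide, replicate B) and 8057700 counts (CASC3 with cycloheximide, replicate A). Replicate log2 levels correlated at 0.909 to 0.971 across transcripts in the other replicated groups, and at 0.775 in RNPS1 footprints with cycloheximide, whose replicate B holds 1 to 5 counts of INSIG1, IDI1, FDFT1 and SQLE. In RNA-seq, 8 of 8 HEK293 markers had a count in at least 1 library, vimentin at 1040 and 1010 CPM (counts scaled to a common library total). PAX2 had only 4 and 1 counts, and NEFM 1 and 0. The 10 markers of blood, endothelium, liver and fibroblasts summed to 21.8 and 16.9 CPM, and PTPRC, SPI1, CD14, CDH5 and ALB were at 0. The other 5 were above 0, and COL1A1, the highest with 10 and 11 counts, exceeded PAX2 and NEFM. In bulk libraries fewer cells with a transcript and less of it per cell cannot be told apart, and CPM gives a share of a library, not an absolute amount of bound complex.

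Of the exons that were lower with cycloheximide in CASC3 footprints, 8 are shown by the last 30 bases of each, 5′ to 3′ on the transcript, from GENCODE 29 on hg38. They are examples from 6 genes and not a ranking by size: FDFT1 exon 3 (-5.57 on the log2 scale) and LSS exon 1 (-4.60) changed by more than some of those shown. Exon 1 of DHCR7, of IDI1 and of SREBF2 was not called in a fit that takes the GC content of exons into account, as given below. Capitals mark the bases 20 to 24 upstream of the exon's 3′ end, the region where the complex is known to be deposited. The count tables give reads per exon and not their place within it.
INSIG1 exon 1: agagccGGCGGgcgggcgcctctcggccag
INSIG1 exon 2: gggtccCTCCCtgctgcgggacagcagctg
INSIG1 exon 5: gtggggAACATaggacgacagttagctatg
HMGCS1 exon 1: ctttccTCTGCtgccgctcggtcacgcttg
LSS exon 2: ctggaaGCCTAcgccctggggctggacacc
DHCR7 exon 1: ggcgcaGGTGAggggccgaggtgtgcgcag
IDI1 exon 1: ggcggtTGTCTgtggccggaggctgatcag
SREBF2 exon 1: gcgacgAGCTGaccctgggagacatcgacg
These windows lie at chr7:155297930-155297959, chr7:155298668-155298697 and chr7:155302817-155302846 on the plus strand for INSIG1. They lie at chr5:43313356-43313385 for HMGCS1, chr21:46228434-46228463 for LSS, chr11:71448290-71448319 for DHCR7 and chr10:1048864-1048893 for IDI1, all on the minus strand, and at chr22:41833329-41833358 on the plus strand for SREBF2. Their GC content is 83.3%, 73.3% and 50% for INSIG1 exons 1, 2 and 5. The other 5 windows, 4 of them in first exons, hold 63.3% to 76.7% GC. Exon 1 of INSIG1, HMGCS1 and DHCR7 is non-coding, INSIG1 exon 5 and LSS exon 2 are coding, and the other 3 are part coding.

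The transcripts differ in how many junctions they carry. LSS has 23 exons over 2995 nt (chr21:46188141-46228822, minus strand), or 7.35 junctions per kb. SREBF2 has 19 exons over 5240 nt (chr22:41833105-41907308, plus strand), or 3.44 junctions per kb. HMGCS1 has 10 exons over 3466 nt (chr5:43289395-43313512, minus strand) and DHCR7 has 9 over 2666 nt (chr11:71434414-71448435, minus strand), 2.6 and 3.0 junctions per kb. INSIG1 has 6 exons over 3010 nt (chr7:155297776-155310235, plus strand) and IDI1 has 5 over 2301 nt (chr10:1039908-1049170, minus strand), the fewest per kb at 1.66 and 1.74. SQLE (11 exons, 2961 nt) and FDFT1 (10 exons, 2660 nt) lie on chromosome 8 and have 3.38 junctions per kb each. Whether the counting used strand is not given in the sources used here, and annotated antisense or non-coding RNAs overlap HMGCS1 exon 10, IDI1 exon 2, FDFT1 exon 2, LSS exons 5 and 23 and SREBF2 exon 1. No annotated exon of another gene overlaps INSIG1, SQLE or DHCR7.

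The transcripts carried the complex very unequally for their abundance. LSS, lanosterol synthase, which closes squalene epoxide into the first sterol, was the densest of the 8 in both untreated crosslinked groups, and INSIG1 was near the top in CASC3 footprints and near the bottom in RNPS1 footprints. Per kb of transcript, LSS averaged 73.1 CPM in CASC3 footprints and 107.6 CPM in RNPS1 footprints, against 16.4 CPM in RNA-seq. INSIG1 averaged 57.5 CPM per kb in CASC3 footprints and 9.03 CPM per kb in RNPS1 footprints, against 34.4 CPM per kb in RNA-seq. In the native CASC3-EIF4A3 and MAGOH-CASC3 libraries, 1 each, INSIG1 had 11.7 and 10.7 CPM per kb, below its RNA-seq value. In RNA-seq the order per kb was INSIG1, SREBF2 (29.9), FDFT1 (25.7), IDI1 (23.9), HMGCS1 (23.2), LSS, SQLE (14.2) and DHCR7 (8.68). The libraries of INSIG1 and SREBF2 overlapped, as did those of IDI1 and HMGCS1 and of LSS and SQLE. In CASC3 footprints the order was LSS, INSIG1, SREBF2 (55.1), HMGCS1 (29.6), FDFT1 (19.1), DHCR7 (12.9), SQLE (12.5) and IDI1 (9.56), in which the libraries of SREBF2 and HMGCS1 stood apart and every other pair of neighbours overlapped.

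**Figure D1:**
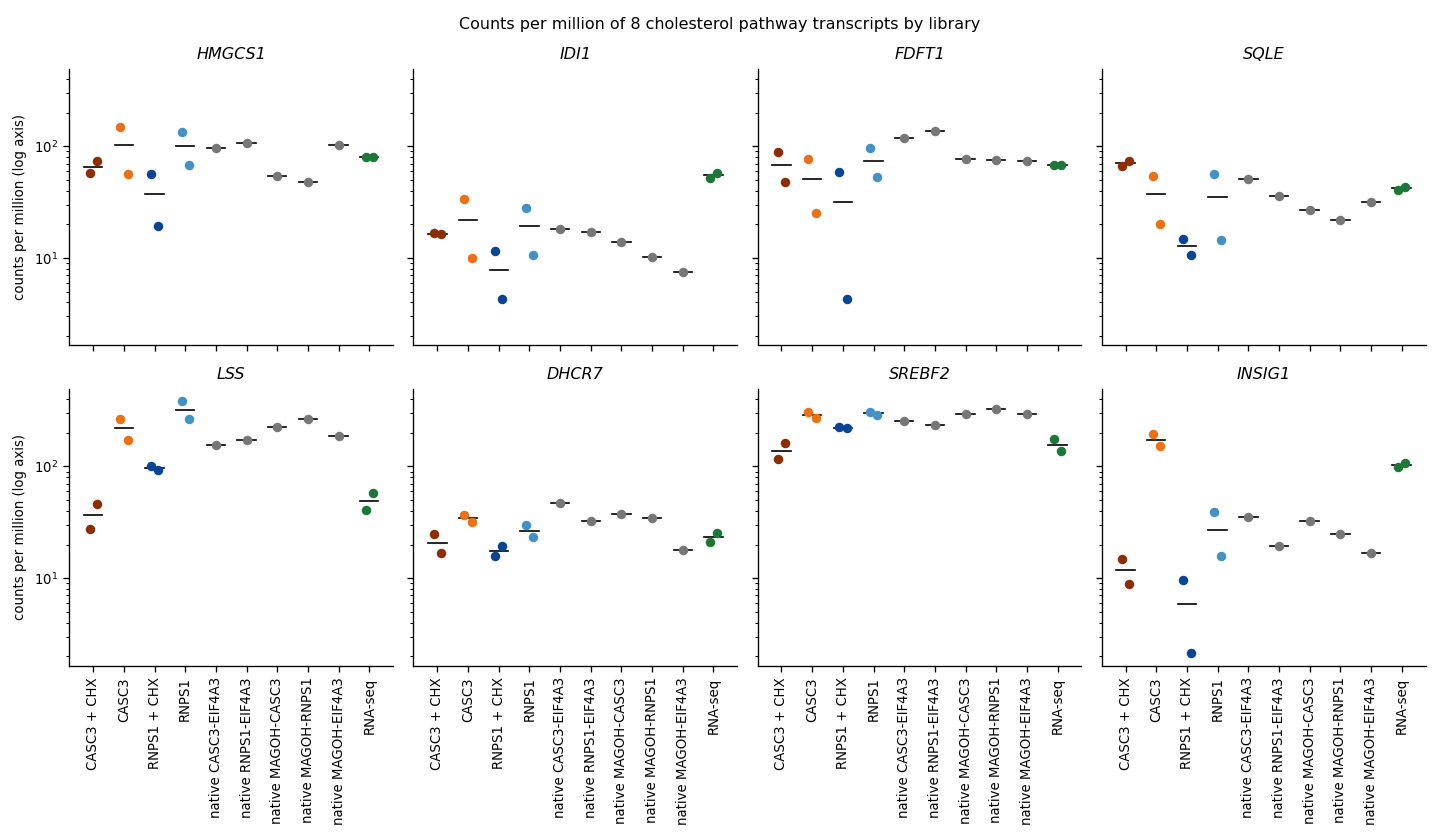
CPM (log axis) of the 8 transcripts in every library. Each point is a library and each bar the mean of its group, with cycloheximide-treated groups left of untreated ones and RNA-seq at the right. INSIG1 stands at 194.9 and 151.1 CPM in untreated CASC3 footprints, above each of the other 8 crosslinked or RNA-seq libraries, and at 2.14 CPM in the lowest RNPS1 library with cycloheximide.

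Which transcripts did CASC3 complexes occupy differently from RNPS1 complexes in untreated cells? Of the 8, INSIG1, the regulator that retains the SREBP2 precursor, differed. INSIG1 stood at 194.9 and 151.1 CPM in CASC3 footprints, against 38.7 and 15.7 CPM in RNPS1 footprints, so the groups did not overlap. The log2 fold change was 2.86 ± 0.53 (SE; 7.26-fold higher; adjusted p = 0.03, edgeR's quasi-likelihood test), higher in 2 of 2 libraries. Of all 14297 transcripts tested, 0.553% were called higher, and 1 of the 8 members was. With the GC content of transcripts taken into account, an alternative chosen after seeing the data, the INSIG1 value was 3.00 ± 0.43 (adjusted p = 0.0012, same test).

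The INSIG1 call rests on all of the untreated crosslinked libraries and on both treated CASC3 libraries. The log2 difference stayed between 2.46 and 3.49 when each of the 8 libraries was left out in turn. The adjusted p of edgeR's test was then 0.0758 without CASC3 replicate A, 0.324 without CASC3 replicate B, 0.322 without RNPS1 replicate A and 0.509 without RNPS1 replicate B. It was 0.09 and 0.0865 without replicate A or B of CASC3 with cycloheximide, so the call was lost in these 6 cases.

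The other 7 transcripts lay between -0.42 and 0.52 on the log2 scale, and none passed the test. HMGCS1, the synthase that makes HMG-CoA at the head of the pathway, stood at 148.3 and 56.7 CPM in CASC3 footprints, against 133.9 and 68.5 CPM in RNPS1 footprints. SREBF2 stood at 306.2 and 270.8 CPM in CASC3 footprints, against 306.1 and 289.4 CPM in RNPS1 footprints. Both pairs of groups overlapped. LSS had 263.8 and 173.8 CPM in CASC3 footprints, against 381.0 and 263.8 CPM in RNPS1 footprints, a log2 difference of -0.41 ± 0.44. The median of the 8 was 0.20, beside -0.09 for all transcripts.

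**Figure D2:**
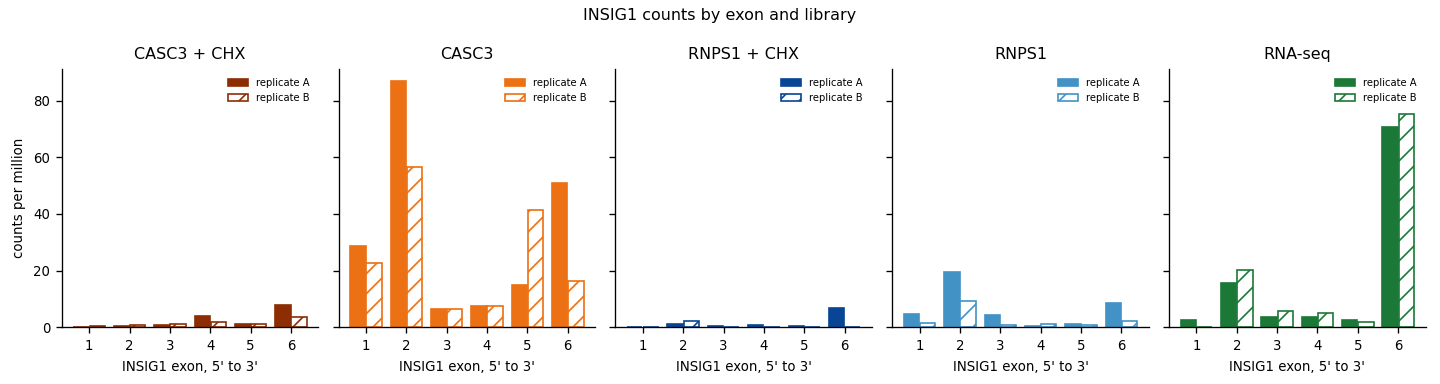
CPM of the 6 INSIG1 exons (5′ to 3′) in the crosslinked and RNA-seq groups, 1 bar per library, replicate A filled and B hatched. Exon 2 holds the most counts in untreated CASC3 footprints (82 and 45), and exon 6, the last and longest, in RNA-seq (81 and 89).

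Along INSIG1, all 6 exons had a positive log2 difference between CASC3 and RNPS1 footprints, from 1.49 to 4.99. Exon 5 was called: it held 14 and 33 counts in CASC3 footprints, against 3 and 3 counts in RNPS1 footprints, which had the deeper libraries. Its log2 fold change was 4.99 ± 1.05 (adjusted p = 0.00259, edgeR's quasi-likelihood test). Of 104449 exons tested over all genes, 0.286% were higher, and among the 83 of 93 member exons that passed the filter on low counts this was the 1 called. The count was 0 without CASC3 replicate B or either untreated RNPS1 library, and 5 without either treated RNPS1 library. Without replicate B of RNPS1 with cycloheximide, INSIG1 exons 1, 2, 4, 5 and 6 were all called, at 2.41 to 4.94. No member showed unequal exon use between the proteins, nor did any gene tested (0 of 10717 with edgeR's diffSpliceDGE, 229 at an unadjusted p under 0.05).

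The native libraries, with 1 library per purification and so no test, also held more INSIG1 with CASC3 than with RNPS1, by a smaller factor. INSIG1 had 35.3 CPM (exact Poisson 95% interval 24.3 to 49.5) in CASC3-EIF4A3 and 19.3 CPM (13.9 to 25.9) in RNPS1-EIF4A3. It had 32.2 CPM (23.8 to 42.6) in MAGOH-CASC3 and 24.9 CPM (19.7 to 31.0) in MAGOH-RNPS1. These intervals overlapped in both pairs and cover counting error only. The log2 ratios, less the median of all transcripts, were 0.91 for the first pair and 0.36 for the second, the 91.6th and 81.3rd percentile of all transcripts. Counting INSIG1, 5 of the 8 lay above 0 in the first pair and 6 in the second, with medians of 0.18 and 0.12. Because the median of all transcripts was subtracted, as many of all transcripts lie above 0 as below. These counts therefore show no lean of the members as a set. DHCR7 (0.59) and SQLE (0.54) came next in the first pair, and IDI1 (0.44) stood above INSIG1 in the second. None of the 8 passed a ratio of 1 in size in either pair, where 6.67% of all transcripts lay above 1 and 2.57% below -1 for the first pair, and 3.82% and 0.944% for the second.

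Crosslinking and the denaturing lysis that went with it were accompanied by a large difference in INSIG1 in CASC3 libraries. INSIG1 was 2.37 on the log2 scale above the native CASC3-EIF4A3 library, the 99.8th percentile, beside 0.42 for RNPS1. Above 1 lay 6.9% of all transcripts for CASC3 and 2.99% for RNPS1, and below -1 lay 8.22% and 6.5%. FDFT1, squalene synthase, was the member below -1, at -1.22 for CASC3, and stood at -0.82 for RNPS1. LSS was at 0.62 for CASC3 and 0.97 for RNPS1. None of these has a replicate of the native library, and crosslinking and lysis buffer cannot be told apart.

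**Figure D3:**
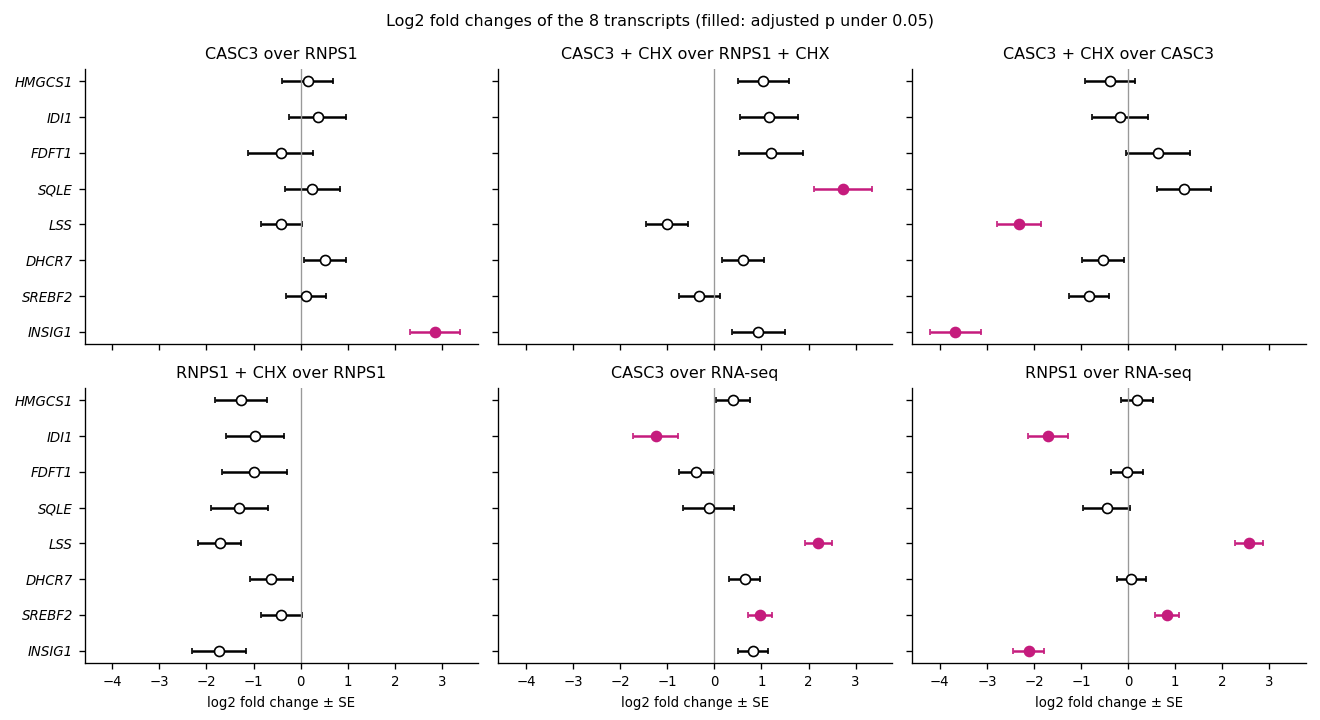
Log2 fold changes ± SE of the 8 transcripts in 6 comparisons, with filled points for an adjusted p under 0.05. INSIG1 is called in CASC3 over RNPS1, in CASC3 with cycloheximide over CASC3 and in RNPS1 over RNA-seq, and in RNPS1 with cycloheximide over RNPS1 all 8 points lie below 0 with none called.

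Cycloheximide, which stops ribosomes from removing complexes, was accompanied in CASC3 footprints by far less INSIG1 and LSS, while the other 6 transcripts did not pass the test. The series holds no RNA-seq of treated cells. In every comparison with the drug, a change of transcript level and one of bound complex therefore cannot be told apart. INSIG1 had 14.8 and 8.95 CPM in CASC3 footprints with cycloheximide, against 194.9 and 151.1 CPM without. It fell by 3.67 ± 0.54 on the log2 scale (12.8-fold; adjusted p = 0.00148, edgeR's quasi-likelihood test). LSS had 27.8 and 45.8 CPM with cycloheximide, against 263.8 and 173.8 CPM without, and fell by 2.32 ± 0.47 (4.99-fold; adjusted p = 0.00416). In both, every treated library lay below every untreated one. Of all transcripts 15.8% were called lower, and 2 of the 8 members were. INSIG1 was called in 13 of 13 other settings of the fit, at -3.91 to -3.49. LSS was called in 12 of 13, and was at -1.89 with an adjusted p of 0.0638 without replicate A of the treated CASC3 libraries.

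Among the rest, SQLE, the epoxidase that adds oxygen to squalene, had 67.1 and 74.3 CPM with cycloheximide, against 54.0 and 20.2 CPM without. The groups did not overlap, and the log2 change of 1.18 ± 0.57 was not called (adjusted p = 0.125). It was called in 4 of 13 other settings of the fit: the replicate block (adjusted p = 0.0487), no filter on low counts (0.0444), the 4 compared libraries alone (0.0222) and without replicate B of treated RNPS1 (0.0351). With transcript GC content in the fit, which is not among those 13, SQLE was at 0.62 ± 0.49 (adjusted p = 0.373, edgeR's quasi-likelihood test). FDFT1 had 88.2 and 48.1 CPM with cycloheximide, against 76.3 and 25.2 CPM without, and overlapped. SREBF2 had 116.8 and 160.4 CPM with cycloheximide, against 306.2 and 270.8 CPM without. Its log2 change of -0.83 ± 0.43 had an adjusted p of 0.145, although the groups did not overlap. HMGCS1, IDI1 and DHCR7 lay between -0.53 and -0.17. The median of the 8 was -0.45, beside 0.06 for all transcripts.

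Base composition moved with the treatment. The count-weighted GC content of exons was 46.5% and 48.0% in CASC3 libraries with cycloheximide, against 55.5% and 57.1% without. Over the members' exons alone it was 49.2% and 51% with cycloheximide, against 56.3% and 59.1% without. First exons took 2.14% and 1.99% of all counts in the treated CASC3 libraries, against 11% and 11.8% in the untreated ones. With transcript GC content in the fit, INSIG1 was at -4.31 ± 0.45 (adjusted p = 0.000143) and LSS at -1.79 ± 0.41 (adjusted p = 0.00674). HMGCS1 was then called too, at -1.47 ± 0.41 (adjusted p = 0.0184). The others were not called in that fit: SQLE at 0.62 ± 0.49, SREBF2 at -0.19, IDI1 at -1.32, DHCR7 at 0.14 and FDFT1 at 0.30. The part of base composition in the changes left in that fit was not tested.

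**Figure D4:**
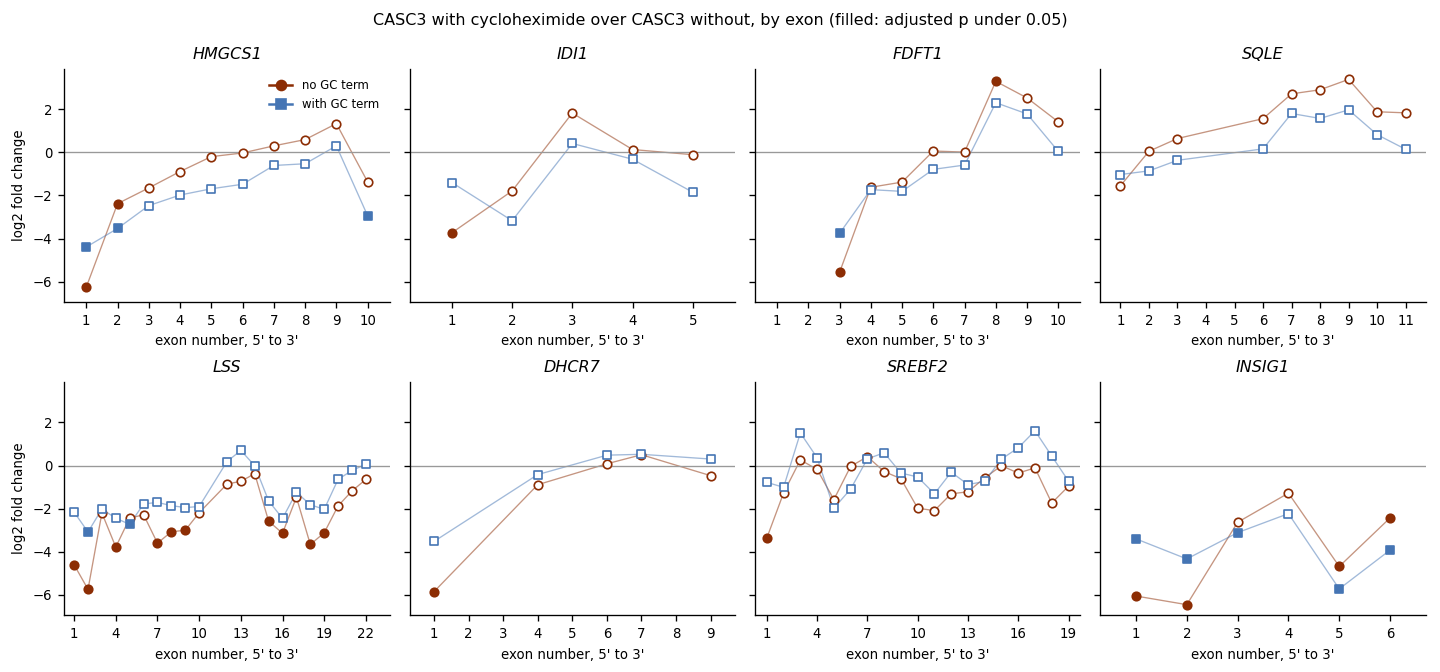
Log2 fold change of each tested exon, numbered 5′ to 3′, between CASC3 footprints with and without cycloheximide, in both fits drawn (without and with exon GC content), with filled points for an adjusted p under 0.05. In the fit without GC content, HMGCS1 exon 1 lies at -6.25, INSIG1 exons 1 and 2 at -6.05 and -6.45, and FDFT1 exon 8 at 3.29.

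By exon, CASC3 footprints with cycloheximide were lower at most first exons and at a smaller share of internal ones. Of 83 member exons tested, 20 were lower and 1 was higher, in 7 of the 8 genes, against 11.3% lower and 7.22% higher over all exons. Of 7 first exons tested, 6 were lower, with a median log2 change of -4.60, as were 13 of 69 internal exons and 1 of 7 last exons. First exons of all genes were lower in 51% of cases, internal exons in 7.92% and last exons in 4.42%, so lower first exons were common across genes.

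The non-coding first exon of HMGCS1 held 0 and 2 counts with cycloheximide, against 16 and 8 counts without, in libraries that were far deeper with the drug. It fell by 6.25 ± 1.19 on the log2 scale (adjusted p = 2.33e-05, edgeR's quasi-likelihood test). INSIG1 exon 2 held 5 and 6 counts with cycloheximide, against 82 and 45 without, and fell by 6.45 ± 1.05 (adjusted p = 4.77e-07). LSS exon 2 held 4 and 2 counts with cycloheximide, against 25 and 17 without, and fell by 5.74 ± 1.07 (adjusted p = 1.34e-05). FDFT1 exon 3 held 2 and 0 counts with cycloheximide, against 8 and 6 without. FDFT1 exons 1 and 2, which precede it, held at most 5 counts in any crosslinked or RNA-seq library.

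DHCR7, the reductase of the last step to cholesterol, was lower at exon 1 (-5.85 ± 1.38), and IDI1, the isomerase of isopentenyl diphosphate, at exon 1 (-3.73 ± 1.14). SREBF2 was lower at exon 1 (-3.36 ± 0.94), which the antisense RNA SREBF2-AS1 overlaps. LSS had 10 exons lower, exons 1, 2, 4, 7, 8, 9, 15, 16, 18 and 19, at -5.74 to -2.58. INSIG1 had exons 1, 2, 5 and 6 lower. No exon of SQLE was called. FDFT1 exon 8 was higher, with 164 and 82 counts with cycloheximide, against 2 and 1 without (3.29 ± 1.13, adjusted p = 0.0274).

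These exon changes moved with GC content. Over all genes, 69.6% of exons with at least 70% GC were lower, beside 0.228% of those under 40% GC, and all 6 tested member exons with at least 70% GC were among the 20. With exon GC content in the fit, 11 member exons were lower and none higher, beside 4.11% lower and 1.85% higher over all exons, and 8 exons were lower in both fits. Of the 11, 2 were first exons, 7 internal and 2 last. Those 8 were HMGCS1 exons 1 and 2, INSIG1 exons 1, 2, 5 and 6, LSS exon 2 and FDFT1 exon 3. HMGCS1 exon 1 was then at -4.39 (adjusted p = 0.00815) and INSIG1 exon 5, with 46.0% GC, at -5.72 (adjusted p = 4.36e-05). The first exons of DHCR7, IDI1 and SREBF2 were no longer called, and over all genes 10.1% of first exons were lower. The count of 21 also moved with single libraries. It was 3 and 4 without replicate A or B of treated CASC3, 8 and 9 without A or B of untreated CASC3, and 13 and 12 without A or B of untreated RNPS1. It was 37 and 36 without A or B of treated RNPS1.

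Relative to the rest of their own transcript, exons changed unequally in 5 of the 8 members: FDFT1 (adjusted p = 0.000558), HMGCS1 (0.000701), DHCR7 (0.00344), IDI1 (0.0421) and INSIG1 (0.0482), by the Simes test over edgeR's diffSpliceDGE. Of all genes tested, 35.4% were called. LSS (adjusted p = 0.0625), SQLE (0.135) and SREBF2 (0.248) were not. The exons called were exon 1 of HMGCS1 and of DHCR7, exon 3 of FDFT1 and exon 2 of LSS, all lower. These exons hold 67.1% to 74.1% GC. Exon use was tested only in fits without GC content, and the part of base composition in it was not tested. Without either treated CASC3 library, 0 of the 8 members were called, and without either treated RNPS1 library all 8 were. Without A or B of untreated CASC3 the number was 3 and 2, and without RNPS1 replicate B it was 3.

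In CASC3 footprints the mean position of the reads was set at 0 for the first exon and 1 for the last. Averaged over the libraries of a group, it moved towards the 3′ end in all 8 transcripts with cycloheximide. It averaged 0.733 with cycloheximide and 0.518 without for HMGCS1, and 0.576 with and 0.245 without for SQLE. For INSIG1 it was 0.74 with and 0.448 without, and for SREBF2, the smallest shift, 0.649 with and 0.612 without. The SREBF2 libraries overlapped, at 0.618 and 0.679 with cycloheximide and 0.594 and 0.629 without. This was general: the median transcript stood at 0.69 with and 0.538 without, and 94.6% of 5374 transcripts shifted the same way. In RNPS1 footprints HMGCS1, INSIG1 and FDFT1 shifted towards the 3′ end (by 0.294, 0.127 and 0.042) and the other 5 towards the 5′ end (-0.246 in IDI1 to -0.018 in SREBF2), some on as few as 1 or 2 counts in a library. The median transcript there stood at 0.513 with and 0.484 without cycloheximide, and 65.3% of 4491 shifted towards the 3′ end.

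In RNPS1 footprints cycloheximide gave no call among the 8 transcripts, though all 8 log2 changes were negative, with a median of -1.12 beside 0.08 for all transcripts. LSS had 99.8 and 91.9 CPM with cycloheximide, against 381.0 and 263.8 CPM without, and the groups did not overlap. Its log2 change was -1.72 ± 0.46 (unadjusted p = 0.00208, adjusted p = 0.22, edgeR's quasi-likelihood test). INSIG1 had 9.65 and 2.14 CPM with cycloheximide, against 38.7 and 15.7 CPM without, at -1.74 ± 0.57 (adjusted p = 0.25). The INSIG1 value of 2.14 CPM is a single count. Of all transcripts 0.021% were called, or 3, with 1890 at an unadjusted p under 0.05 and 125 by DESeq2.

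Either treated library moved this count, and DESeq2 called LSS with all libraries kept. Without replicate B of the treated RNPS1 libraries, INSIG1 fell by 1.47 on the log2 scale (adjusted p = 0.0424) and LSS by 1.71 (adjusted p = 0.0241). Without replicate A, LSS, HMGCS1 and FDFT1 were called lower. The remaining treated library is then assumed to vary like the other groups. The replicates also differed in composition, at 48.1% and 56.6% GC with cycloheximide, against 54.3% and 56.5% without. None of the 83 member exons was called (20 at an unadjusted p under 0.05, 0.196% called over all exons), and no gene of 10717 showed unequal exon use (957 unadjusted).

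Between the proteins under cycloheximide, SQLE differed. SQLE had 67.1 and 74.3 CPM in CASC3 footprints, against 14.9 and 10.7 CPM in RNPS1 footprints, both treated, and the groups did not overlap. The log2 fold change was 2.73 ± 0.62 (6.63-fold higher; adjusted p = 0.017, edgeR's quasi-likelihood test), 2.53 with transcript GC content in the fit (adjusted p = 0.00593). The lower RNPS1 value is 5 counts. Of all transcripts 6.42% were called higher, and 1 of 8 members was. The call was lost without replicate A or B of treated CASC3 (adjusted p = 0.0946 and 0.135) and with the 4 treated libraries alone (0.0991).

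LSS was the member with the largest negative value there, at 27.8 and 45.8 CPM in CASC3 footprints, against 99.8 and 91.9 CPM in RNPS1 footprints (-1.01 ± 0.45, adjusted p = 0.133). INSIG1, called between the proteins without the drug, was at 14.8 and 8.95 CPM in treated CASC3 footprints, against 9.65 and 2.14 CPM in treated RNPS1 footprints (0.93 ± 0.56, adjusted p = 0.252). The median of the 8 was 0.99, beside -0.07 for all transcripts.

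Whether the drug changed the proteins' footprints differently was tested as an interaction. No member was called, nor any of the 14297 transcripts (0% called; 2506 at an unadjusted p under 0.05; 378 by DESeq2). The largest values were 2.48 ± 0.83 for SQLE (unadjusted p = 0.00954, adjusted p = 0.181) and -1.93 ± 0.75 for INSIG1 (unadjusted p = 0.0212, adjusted p = 0.221). The other members lay between -0.60 (LSS) and 1.63 (FDFT1). The falls of INSIG1 counts in CASC3 and RNPS1 footprints were therefore not shown to differ. Without the shallow RNPS1 library the INSIG1 interaction was -2.18 (adjusted p = 0.0387), and without its fellow replicate it was -0.08 (adjusted p = 0.986), so its size rests on which treated RNPS1 library is kept. Without that fellow replicate those of FDFT1 (4.72, adjusted p = 0.00325) and SQLE (2.82, adjusted p = 0.0464) were called, in a fit that called 3474 of 14420 transcripts.

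Against RNA-seq, which gives the abundance of the transcripts in cells with no fusion protein, LSS and SREBF2 were over-represented in the footprints of both proteins and IDI1 was under-represented. LSS had 263.8 and 173.8 CPM in CASC3 footprints and 381.0 and 263.8 CPM in RNPS1 footprints, against 41.0 and 57.5 CPM in RNA-seq. The log2 fold changes were 2.21 ± 0.29 (adjusted p = 0.000293) for CASC3 and 2.57 ± 0.29 (adjusted p = 6.5e-05) for RNPS1, by edgeR's quasi-likelihood test. LSS was called in 11 of 11 other settings of the fit in both comparisons, and stood at 1.53 and 1.85 with transcript GC content in the fit. The long last exon of the LSS transcript held few RNA-seq reads, as given below. How this bears on its ratio to RNA-seq was not tested. Of all 12379 transcripts tested, 27% were higher and 24.1% lower for CASC3, where 2 members were higher and 1 lower. For RNPS1, 32.1% were higher and 29.6% lower, and 2 members were higher and 2 lower.

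SREBF2 had 306.2 and 270.8 CPM in CASC3 footprints and 306.1 and 289.4 CPM in RNPS1 footprints, against 174.6 and 138.6 CPM in RNA-seq. The log2 fold changes were 0.97 ± 0.25 (adjusted p = 0.00904) for CASC3 and 0.82 ± 0.25 (adjusted p = 0.0151) for RNPS1. With transcript GC content (58.1% in SREBF2) in the fit they were 0.16 and -0.06, and neither was called. Leaving out either RNA-seq library also ended the calls, at adjusted p of 0.0716 and 0.145 for CASC3 and 0.0927 and 0.2 for RNPS1, and so did leaving out RNPS1 replicate B for RNPS1 (0.0607).

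IDI1 had 33.9 and 10.1 CPM in CASC3 footprints and 28.1 and 10.6 CPM in RNPS1 footprints, against 52.4 and 57.5 CPM in RNA-seq, with no overlap. It fell by 1.25 ± 0.48 on the log2 scale for CASC3 (adjusted p = 0.0485) and by 1.70 ± 0.43 for RNPS1 (adjusted p = 0.00592). With transcript GC content (39.8% in IDI1) in the fit, the CASC3 value was -0.58 and not called, and the RNPS1 value was -1.03 (adjusted p = 0.0295). The CASC3 call was also lost without CASC3 replicate B (-0.77, adjusted p = 0.23) and without RNA-seq replicate A (0.0924) or B (0.152).

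INSIG1 had 194.9 and 151.1 CPM in CASC3 footprints and 38.7 and 15.7 CPM in RNPS1 footprints, against 98.6 and 108.2 CPM in RNA-seq. RNA-seq thus lay between the proteins with no overlap on either side. INSIG1 fell by 2.11 ± 0.33 on the log2 scale in RNPS1 footprints (adjusted p = 0.000367), called in 11 of 11 other settings of the fit, and at -1.94 with GC content in the fit. In CASC3 footprints it was at 0.82 ± 0.32 (adjusted p = 0.0514), just short of the threshold. It was called in 5 of 11 other settings of the fit, among them the replicate block (0.81, adjusted p = 0.0148), no filter on low counts (0.00364) and the 4 compared libraries alone (0.0123), and was at 1.08 with GC content in the fit (adjusted p = 0.00941). HMGCS1, with 40.1% GC, was called higher in that fit for both proteins, at 1.04 and 0.82 (adjusted p = 0.0144 and 0.024), and DHCR7 lower for RNPS1, at -0.83 (adjusted p = 0.0332). Both comparisons use the same RNA-seq libraries.

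**Figure D5:**
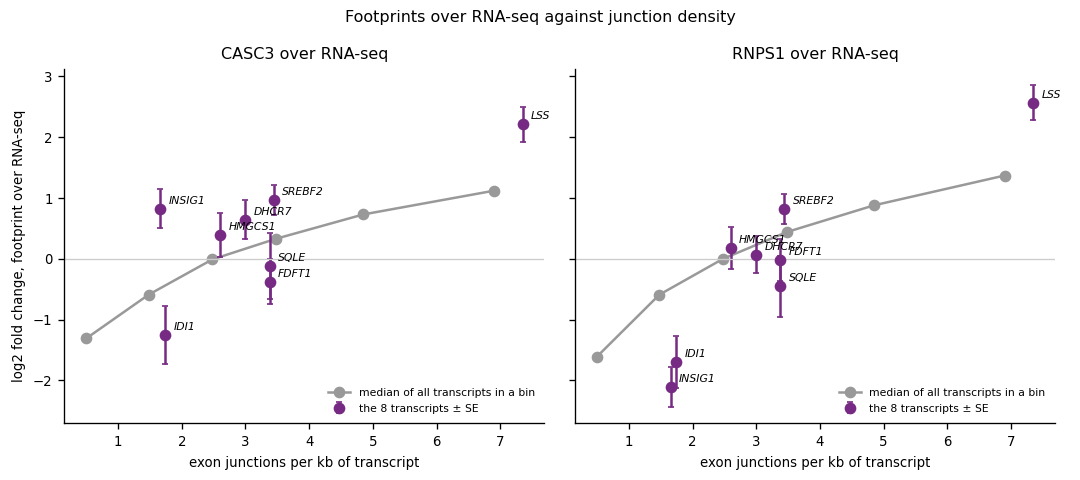
Log2 fold change of footprints over RNA-seq (± SE) against exon junctions per kb for the 8 transcripts, with the median of all transcripts in 6 bins of junction density, for CASC3 at left and RNPS1 at right. LSS, with 7.35 junctions per kb, lies highest in both, and INSIG1, with 1.66, lies above the median of its own bin for CASC3 and below it for RNPS1.

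The footprint to RNA ratio of all transcripts moved with junction density. Over 11876 transcripts, Spearman's rho was 0.546 for CASC3 and 0.593 for RNPS1, across transcripts that share libraries. The median log2 ratio went up with density, and was -1.31 for transcripts with under 1 junction per kb and 1.12 for those with at least 6 in CASC3 footprints. In RNPS1 footprints these medians were -1.61 and 1.37. LSS, at 2.21 and 2.57, lay above the median of its bin in both. INSIG1 and IDI1 share the bin of 1 to under 2 junctions per kb, whose median was -0.59 for both proteins. IDI1 lay below it in both, at -1.25 and -1.70, and INSIG1 above it for CASC3 and below it for RNPS1.

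Summed over the 8 transcripts, footprints were scarcer on last exons, which carry no downstream junction, than RNA-seq reads. Last exons make up 42.9% of the length of the 8 transcripts. They took 17.8% and 11.1% of the members' counts in CASC3 footprints and 9.57% and 6.46% in RNPS1 footprints, against 43.4% and 40.7% in RNA-seq. With cycloheximide they took 24% and 14.0% in CASC3 and 19.0% and 10.9% in RNPS1 footprints. The last exon of LSS, 22.7% of its length, held 0 to 8 of 43 to 1093 counts in the crosslinked footprint libraries, and also few in RNA-seq, 2 of 47 and 0 of 68. The last exon of INSIG1, 66.3% of its length, took 26.1% and 10.8% in CASC3 footprints, against 71.7% and 69.5% in RNA-seq. With cycloheximide it took 53.8% and 40% of INSIG1 counts in CASC3 footprints. In RNPS1 footprints with cycloheximide it took 49 of 70 counts in replicate A, a share within the range of RNA-seq, and 0 of 1 in replicate B, against 22% and 13.8% without. The last exon of HMGCS1 took 42.5% of 407 counts and 66.7% of 9 counts in RNPS1 footprints with cycloheximide, against 51.1% and 35.8% in RNA-seq.

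Of 59 other genes of the pathway and its surroundings, in 5 lists, 58 were tested in the crosslinked libraries. Between CASC3 and RNPS1 footprints without the drug, none of the 58 was called. The smallest p-values in cholesterol synthesis were those of CYP51A1, lanosterol demethylase (1.49 ± 0.53, adjusted p = 0.305), and MVK, mevalonate kinase (1.31 ± 0.49, adjusted p = 0.321). Among the genes of sterol sensing, the smallest p was that of UBE2G2, a ubiquitin-conjugating enzyme (-1.48 ± 0.47, adjusted p = 0.235). SCAP, the escort of SREBP, had 325.2 and 372.8 CPM in CASC3 footprints, against 154.8 and 173.3 CPM in RNPS1 footprints (1.25 ± 0.47, adjusted p = 0.327). Under cycloheximide 6 were higher and 1 lower in CASC3 than in RNPS1 footprints, where 6.42% of all transcripts were higher and 7.69% lower. With transcript GC content in the fit 9 were higher and 1 lower, where 10.1% and 11.4% of all transcripts were, and 6 genes were called in both fits. CYP51A1 was higher (2.87 ± 0.53), as were the oxysterol-binding protein OSBP (1.99 ± 0.43) and the acyl-CoA synthetase ACSL3 (2.54 ± 0.52), and UBE2G2 was lower (-2.92 ± 0.50). RNF145, SOAT1 and the farnesyltransferase subunit FNTA were the other 3 higher. None of the 58 was called without either treated CASC3 library or with the 4 treated libraries alone, where 0 of all transcripts were called by edgeR (3284 and 3019 without A or B and 3404 with the 4 libraries at an unadjusted p under 0.05). Without replicate A of treated RNPS1, 17 of the listed genes were called.

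In CASC3 footprints, cycloheximide was accompanied by 12 of the 58 higher and 8 lower, where 16% of all transcripts were higher and 15.8% lower. With transcript GC content in the fit 10 were higher and 3 lower, where 10.8% and 12.1% of all transcripts were, and 10 genes were called in both fits. The list of 14 other synthesis genes had 3 higher and 3 lower, among them GGPS1, geranylgeranyl diphosphate synthase, higher (2.67 ± 0.59), and MVD, mevalonate diphosphate decarboxylase, lower (-2.28 ± 0.53). MVD had 8.07 and 7.46 CPM with cycloheximide, against 59.3 and 29 CPM without. With GC content in the fit, GGPS1 was at 1.53 (adjusted p = 0.0263) and MVD at -0.42 (adjusted p = 0.599). Of 11 genes of sterol sensing 1 was higher, RNF145, and 2 were lower, SCAP and UBE2G2. SCAP had 96.7 and 96.7 CPM with cycloheximide, against 325.2 and 372.8 CPM without (-1.66 ± 0.48, adjusted p = 0.0184), and was at -0.39 with GC content in the fit (adjusted p = 0.581). The 10 genes of the isoprenoid branch had 5 higher and none lower, among them FNTA (2.54 ± 0.55) and PGGT1B (2.01 ± 0.66), which encode prenyltransferase subunits, and 3 were higher with GC content in the fit. FNTA was then at 1.97 (adjusted p = 0.00493) and PGGT1B at 0.92, not called (adjusted p = 0.18). Transport genes had 2 higher and 2 lower of 12, and fatty acid genes 1 and 1 of 11. The 20 calls of listed genes in CASC3 footprints were 1 without replicate B and 9 without replicate A of untreated CASC3, 6 and 5 without A or B of treated CASC3, and 28 without either treated RNPS1 library. In RNPS1 footprints none of the 58 was called with the drug, and MVD had the smallest p (-2.64 ± 0.56, adjusted p = 0.21).

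Against RNA-seq, 16 of 57 listed genes were higher and 19 lower in CASC3 footprints, and 16 were higher and 24 lower in RNPS1 footprints. Of all transcripts 27% were higher and 24.1% lower for CASC3, and 32.1% higher and 29.6% lower for RNPS1. With transcript GC content in the fit 9 listed genes were higher and 12 lower for CASC3, where 22.4% and 21.6% of all transcripts were, and 9 were higher and 19 lower for RNPS1, where 28.6% and 29.5% were. The 35 calls for CASC3 and 40 for RNPS1 were 21 and 29 without RNA-seq replicate A. SREBF1, which encodes the other SREBP, was higher in both, with 264.9 and 183.9 CPM in CASC3 and 221.5 and 255.1 CPM in RNPS1 footprints, against 47.1 and 45.6 CPM in RNA-seq. Its log2 fold changes were 2.34 for CASC3 and 2.26 for RNPS1, and 0.81 and 0.89 with GC content in the fit (adjusted p = 0.0174 and 0.00715). INSIG2, the paralog of INSIG1, had 62.9 and 58.3 CPM in RNA-seq. It was lower in the footprints of both proteins, at 10.6 and 11.3 CPM for CASC3 and 2.55 and 8.45 CPM for RNPS1. The log2 fold change for RNPS1 was -3.41 ± 0.45, and -2.23 with GC content in the fit. NPC2, the lysosomal cholesterol carrier, was lower in both (-4.22 ± 0.65 for CASC3 and -3.84 ± 0.45 for RNPS1). These values rest on few counts, 1 and 1 in CASC3 and 4 and 7 in RNPS1 footprints, against 23 and 32 in RNA-seq.

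Over the 10 group means, the 8 members did not share one profile. Of their 28 pairs, 23 had a positive Pearson correlation of log2 CPM, with a median of 0.30 and a range from -0.66 (IDI1 with SREBF2) to 0.90. The highest was LSS with SREBF2. Among 7705 other transcripts, those whose profile was most like the mean of the 8 standardised profiles were CARS (0.901), SLC7A5 (0.896), ASS1 (0.888), AARS (0.884), SNHG5 (0.881) and PDGFA (0.874). CARS and AARS encode tRNA synthetases and SLC7A5 an amino acid transporter. The mean profile stood at -1.53 in RNPS1 footprints with cycloheximide, the group with the shallow library, and between -0.13 and 0.57 in the other groups. The correlations thus lean heavily on that group. These are descriptions over 10 group means that differ in depth and base composition.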

How the data were processed

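RIPiT-Seq footprints and RNA-seq of HEK293 Flp-In Trex cells were analysed in 15 libraries of 10 groups, as labelled by the submitters. The deposited tables hold raw counts of reads per exon and per transcript made by the authors, and the submitters' processing notes name cutadapt 1.16, TopHat2 2.1.1, bedtools and the hg38 build. The sources used here do not state the annotation or the counting settings, strand included. Exon coordinates matched GENCODE 29, from which positions, GC content and sequences were taken.

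Counts were tested with edgeR 4.0.16 (R 4.3.3; quasi-likelihood F test after TMM scaling; filterByExpr kept features at a minimum count of 10, p adjusted over all features by Benjamini-Hochberg, threshold 0.05). The 8 crosslinked libraries shared 1 fit, and CASC3, RNPS1 and RNA-seq libraries another. Exon use was tested with diffSpliceDGE. CPM are counts over the library total. Native ratios used a prior of 2 counts. Alternatives were DESeq2 1.42.0 size factors and Wald test, no filter, a replicate block, fits of the compared libraries alone and each library left out. An offset for GC content, in 20 bins, was chosen after seeing the data, and GC was known for 83.8% of transcripts and 87.6% of exons. The edgeR fits were tested on simulated data.

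The members and lists were chosen with earlier results of these data known. All 8 members are named in every comparison, of the other lists the genes with the smallest p, and of the exons those called. The rule also named the densest exon of each member, which is left out because it differed between libraries.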

Additional observations from a re-analysis of the deposited data

How the results depend on the processing

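Over the alternatives, 702 log2 fold changes of members kept their direction and side of the threshold, 34 passed it where the reported fit did not, 22 no longer passed it, and 42 changed sign. Among those 42, SREBF2 in RNPS1 footprints over RNA-seq was called in the reported fit. All 48 native ratios moved little. Leaving out 1 library each gave 0 to 1 members called for CASC3 over RNPS1, 0 to 3 for the same under cycloheximide, 1 to 3 for cycloheximide in CASC3, 0 to 3 in RNPS1, 0 to 2 for the interaction, and 1 to 4 for CASC3 over RNA-seq. It gave 0 to 5 exons called for CASC3 over RNPS1, 3 to 37 for cycloheximide in CASC3 and 0 to 19 in RNPS1, and 0 to 8 members with unequal exon use for cycloheximide in CASC3. The counts of all transcripts called also moved, to between 0 and 795 for CASC3 over RNPS1 (80 reported), 0 and 5011 under cycloheximide (2017), 356 and 7030 for cycloheximide in CASC3 (4551), 0 and 2033 in RNPS1 (3), 0 and 3474 for the interaction (0) and 3839 and 6945 for CASC3 over RNA-seq (6329).

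Among the other alternatives, the fit of the 4 compared libraries alone called 0 members between the proteins under cycloheximide and 4 for cycloheximide in CASC3 (INSIG1, LSS and SREBF2 lower, SQLE higher). DESeq2 called 1 for cycloheximide in RNPS1 (LSS), and no filter 1 for the interaction (SQLE). With GC content, 2 exons were called for CASC3 over RNPS1 and 11 for cycloheximide in CASC3, and with the replicate block added 2 and 10. Deviations of same-lettered replicates correlated at 0.0287 to 0.324 between crosslinked groups and at -0.0232 to 0.0142 with RNA-seq, and no label says what a letter shares, so the block was kept as an alternative. The replicate block gave 2 members between the proteins under cycloheximide (SQLE and FDFT1), with or without GC content, and 3179 transcripts there in place of 2017, 148 in place of 80 for CASC3 over RNPS1, and 177 in place of 0 for the interaction. With the block, SQLE was also called for cycloheximide in CASC3 (1.36) and INSIG1 for CASC3 over RNA-seq (0.81). The cause of each difference was not tested.

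Values that changed sign when 1 library was left out ranged, for CASC3 over RNPS1, from -0.43 to 1.36 (SQLE), -0.56 to 1.05 (IDI1), -0.48 to 0.62 (HMGCS1) and -1.21 to 0.09 (FDFT1), and under cycloheximide from -0.70 to 0.01 (SREBF2). For cycloheximide in CASC3 they ranged from -0.66 to 0.82 (IDI1) and -0.78 to 0.34 (HMGCS1), and for the interaction from -0.09 to 0.27 (DHCR7). For CASC3 over RNA-seq they ranged from -0.82 to 0.29 (SQLE), -0.26 to 0.82 (HMGCS1) and -1.20 to 0.09 (FDFT1). For RNPS1 over RNA-seq they ranged from -1.52 to 0.15 (SQLE), -0.09 to 0.26 (DHCR7), -0.21 to 0.46 (HMGCS1) and -0.33 to 0.21 (FDFT1). Signs also changed with GC content, and with the block added, for SREBF2 between the proteins under cycloheximide (0.05 and 0.04), for cycloheximide in CASC3 in DHCR7 (0.14 and 0.13), for CASC3 over RNA-seq in SQLE (0.13 and 0.00) and DHCR7 (-0.19 and -0.20), and for RNPS1 over RNA-seq in DHCR7 (-0.83 and -0.84), SREBF2 (-0.06 and -0.06) and FDFT1 (0.03 and 0.00). They changed for IDI1 with cycloheximide in CASC3 without a filter or with the block (0.02 each), for SQLE in CASC3 over RNA-seq without a filter (0.07), and for RNPS1 over RNA-seq in DHCR7 with DESeq2 size factors or DESeq2 (-0.01 each) and in FDFT1 without a filter (0.24) or with 4 libraries (0.02).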

Other observations

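The microRNA MIR33A, which is known to act on cholesterol export genes, lies in an intron of SREBF2 between exons 16 and 17 (chr22:41900944-41901012, hg38). Its row held 0 counts in all 15 libraries, which allows up to 3 counts in each.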
